A study of Mus musculus with 12 samples.

Results

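The coronary endothelium of the embryonic mouse heart was compared between stages E13 and E17 over 6 of the 12 bulk RNA-seq libraries of the series, 4 at E13 and 2 at E17. The other 6 libraries hold endocardium of the same 2 stages and are used only to show where the coronary change differs. Members were chosen by the labelled population and stage, and the comparison covers all 15171 genes, of 41214 in the table, that passed a filter on low counts. The lowest total over the 12 libraries among genes that passed was 22 counts, and the highest among those that did not was 138.

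E13 coronary cells came from embryos hemizygous for Nes-gfp, a transgene in which regulatory sequence of the nestin gene drives green fluorescent protein (GFP), collected at E13.5. E17 coronary cells came from embryos collected at E17.5 that carried Nes-Gfp, Nes-CreER (an inducible Cre recombinase under nestin control) and 1 R26 allele with a tomato reporter, after 0.1 ug of tamoxifen at E15.5. The endocardial cells of each stage came from embryos of that stage's genotype and treatment. All cells were viable, negative for Ter119 (red cells) and CD45 (leukocytes) and CD31-positive (Pecam1 encodes CD31), and the atria and the aortic region had been removed. The E13 coronary gate took GFP-positive cells and set no limit on endomucin, while the E17 coronary gates took endomucin-low cells, either tomato-positive or tomato-negative with low GFP, and no label ties either gate to the 2 libraries. At E13 the endocardial gate took GFP-low, endomucin-high cells, and at E17 GFP-positive cells. The batch labels of the stages differ too, 1 to 4 at E13 and 5 and 6 at E17, each batch with 1 coronary and 1 endocardial library. Stage therefore cannot be told apart from batch, genotype, tamoxifen and gate in any result below. Whether replicates are from different litters is not stated, and the p-values reflect only how far these libraries spread.

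Coronary endothelial cells form the arteries, veins and capillaries of the ventricular wall. They arise in part from the endocardium and the sinus venosus, first as an immature plexus that expands with the growing muscle. Capillaries of the mature heart take up fatty acids: lipoprotein lipase, held at the vessel surface by the protein that Gpihbp1 encodes, releases them from circulating lipoproteins, and the transporter CD36 and fatty acid binding proteins carry them across the cell.

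Depth ran from 14973633 to 21560343 expected counts in the coronary libraries. The first principal component of the 6 libraries held 69.2% of the variance and parted the stages, at -23.7, -47.1, -55.0 and -44.6 in E13 replicates 1 to 4 and 78.5 and 91.8 in E17 replicates 1 and 2. Within E13, replicate 1 lay nearest to the E17 libraries and replicate 3 farthest. The E13 libraries also differed in genes of other cells. The summed level of 11 fibroblast genes was 2746, 5150, 6641 and 4767 CPM (the unit of level used here, counts relative to the library size after TMM scaling) in E13 replicates 1 to 4 and 4433 and 2043 CPM at E17, and all 11 were lowest in replicate 1 and highest in replicate 3. Of 584 genes at least 2-fold lower at E17 with a mean of 10 CPM or more at E13, 310 (53.1%) had that same order of E13 libraries, where 14.7% of the 9377 tested genes of this level had it. Of 429 genes at least 2-fold higher, 258 (60.1%) had the opposite order, against 25.1% of all. The part of other cells in these changes was not tested. In bulk samples, fewer cells of a type and less RNA per cell cannot be told apart.

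By the quasi-likelihood test of edgeR, with p-values adjusted after Benjamini and Hochberg, 7604 of the 15171 genes passed 0.05 in the coronary comparison (50.1%), 3725 higher at E17 (24.6%) and 3879 lower (25.6%). At least 2-fold changes that passed were 1009 rises (6.65%) and 1654 falls (10.9%). With library totals in place of TMM factors the split was 2586 higher and 5467 lower, as the median log2 fold change of all genes moved from -0.02 to -0.17. In the endocardial libraries 4830 genes passed (31.8%). Both comparisons called 3114 genes, 41.0% of the coronary and 64.5% of the endocardial calls, 2346 of them in the same direction and 768 in opposite directions. The difference between the 2 stage changes, tested as an interaction, passed for 4962 genes (32.7%), and for 3948 of the 7604 coronary calls.

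In what follows, the values of a gene are CPM in the order of replicates 1 to 4 at E13 and 1 and 2 at E17. Log2 fold changes are E17 over E13 with their standard errors. Means are given with their SD (n = 4 at E13 and n = 2 at E17), and adjusted p-values are from the edgeR test over all genes tested. Gene lists were chosen with earlier results of these data known, so their counts are descriptions. Each count of a list stands beside 24.6% of all genes higher and 25.6% lower.

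The 4 genes that mark the comparison moved by more than the spread between libraries. Hand2, a transcription factor gene of cardiac progenitors and the endocardium (ENSMUSG00000038193, GRCm38 chr8:57320983-57324633, plus strand), stood at 93.5, 112, 123 and 113 CPM in the E13 libraries and 10.012 and 10.003 CPM in the E17 libraries. It fell, with a log2 fold change of -3.46 ± 0.11 (edgeR adjusted p = 1.71e-09), and no E17 library came near an E13 library. Its endocardial change was 0.19 ± 0.08 (edgeR adjusted p = 0.106), and the difference between the changes was -3.66 ± 0.14 (edgeR adjusted p = 1.36e-08). Timp4, a gene for an inhibitor of matrix metalloproteinases (ENSMUSG00000030317, chr6:115241892-115252205, minus strand), stood at 0.162, 0.476, 0.101 and 0.107 CPM in the E13 libraries and 34.8 and 40.6 CPM in the E17 libraries. It rose from under 1 CPM in every E13 library (7.36 ± 0.34, edgeR adjusted p = 1.75e-08). Lpl, the lipoprotein lipase gene (ENSMUSG00000015568, chr8:68880491-68907448, plus strand), stood at 21.5, 16.8, 20.4 and 19.1 CPM in the E13 libraries and 339 and 557 CPM in the E17 libraries (4.53 ± 0.17, edgeR adjusted p = 4.19e-09). Gpihbp1 (ENSMUSG00000022579, chr15:75596628-75599481, plus strand) stood at 36.8, 21.3, 14.3 and 22.6 CPM in the E13 libraries and 321 and 427 CPM in the E17 libraries (3.98 ± 0.27, edgeR adjusted p = 2.47e-07). For these 3 rises the endocardial changes were 1.81 ± 0.48, 1.09 ± 0.17 and 1.21 ± 0.36, and the differences were 5.55 ± 0.67, 3.44 ± 0.25 and 2.77 ± 0.46 (edgeR adjusted p = 6.53e-05, 1.5e-06 and 0.000616). The coronary rise was thus the larger in each.

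Genes of heart capillaries rose together. Their list includes the markers Timp4 and Gpihbp1 and was chosen with earlier results of these data known, so its counts are a description. All 15 on the list passed as higher, and their libraries did not overlap between stages in any, against 24.6% higher and 29.7% without overlap among all genes. Their median log2 fold change was 2.75, and the summed level of the list went from 1815 to 3355 CPM in the E13 libraries to 11555 and 14930 CPM at E17. In 10 of the 15, E13 replicate 1 was highest and replicate 3 lowest, the reverse of the fibroblast genes. Of genes at 10 CPM or more at E13, 25.1% had that order. The part of other cells in the capillary rises was not tested. Aqp7, which encodes a channel for glycerol and water, stood at 0, 0.0433, 0.0504 and 0.107 CPM in the E13 libraries and 32.1 and 43.2 CPM in the E17 libraries. Slc28a2, a gene for a nucleoside transporter, stood at 2.22, 0.390, 0.353 and 0.747 CPM in the E13 libraries and 83.5 and 84.3 CPM in the E17 libraries. Both were near or under 1 CPM in most E13 libraries and above 30 CPM in both E17 libraries. The homeobox gene Meox2 rose by 2.50 ± 0.20 and its partner in fatty acid transport, the transcription factor gene Tcf15, by 1.75 ± 0.19. Car4, the gene for a membrane-bound carbonic anhydrase, rose by 2.75 ± 0.23 while its endocardial change was -2.92 ± 0.61, a difference of 5.67 ± 0.60 (edgeR adjusted p = 2.33e-05). The fatty acid binding protein gene Fabp4 and Meox2 rose in the endocardial libraries as well, by 3.14 ± 0.36 and 2.30 ± 0.50, beside 3.17 ± 0.33 and 2.50 ± 0.20 in the coronary ones. Fabp5 had the smallest rise of the list (0.40 ± 0.12) and did not pass without E17 replicate 2 (edgeR adjusted p = 0.255). From 14 to 15 of the list passed in every alternative, the exception being Fabp5.

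**Figure D1:**
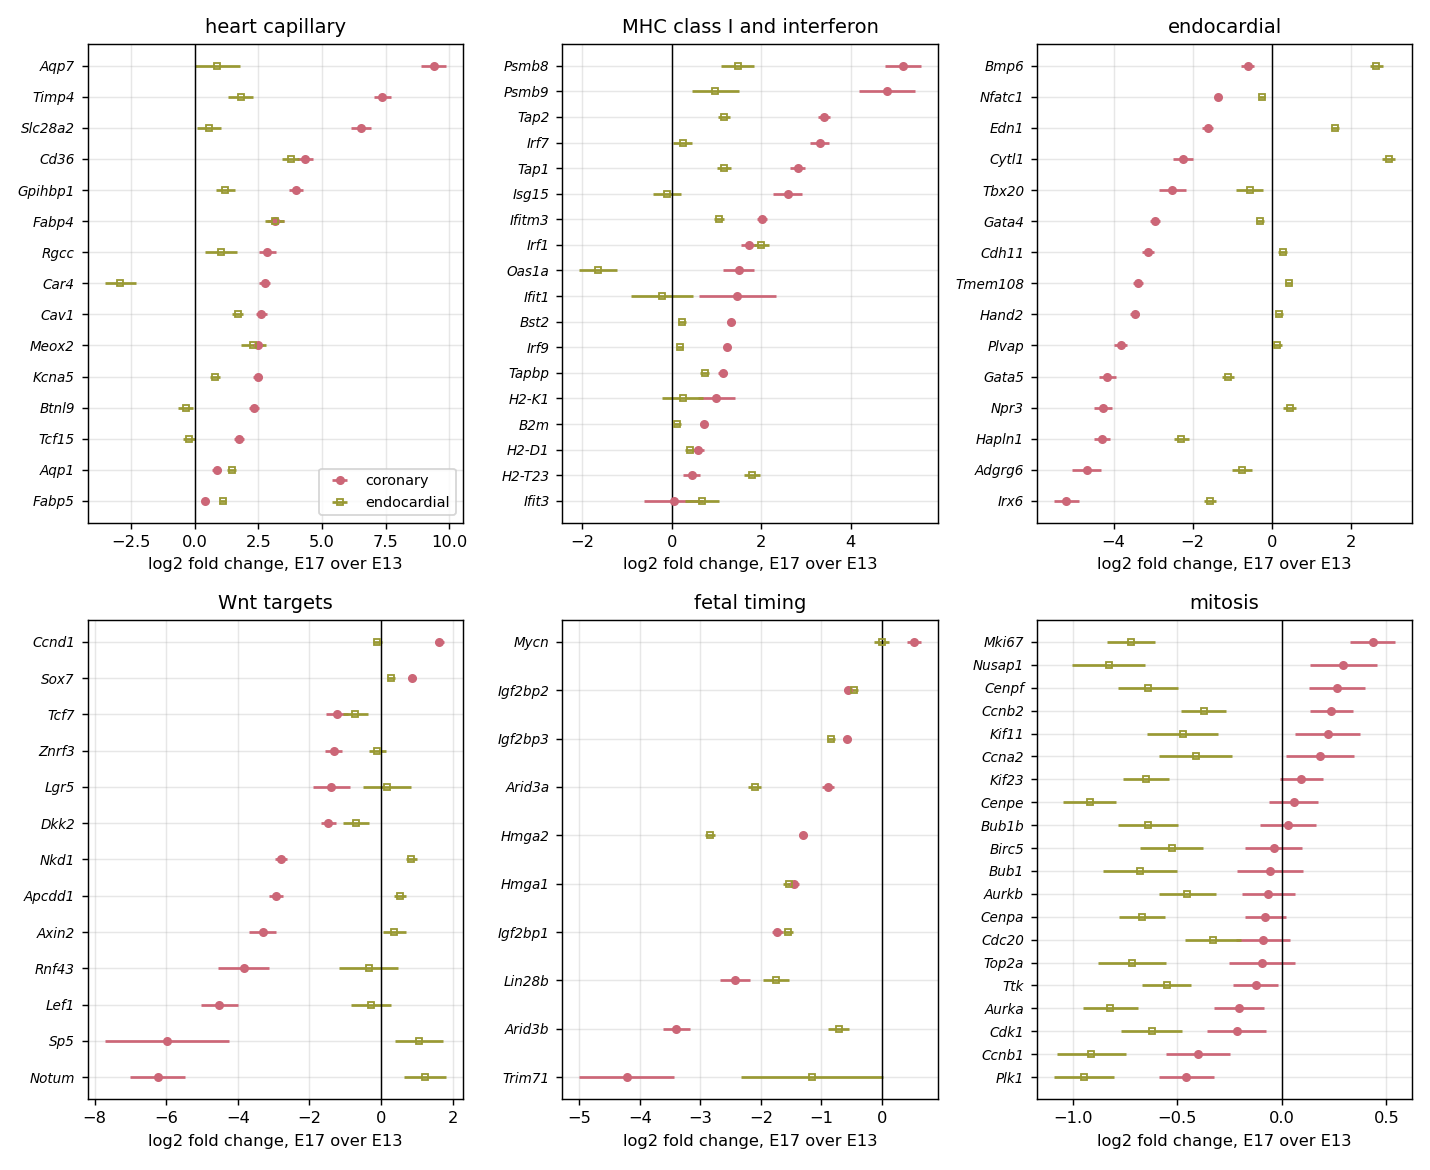
Log2 fold changes from E13 to E17 (horizontal axis, bars are standard errors) of the tested members of 6 gene lists in coronary (filled circles) and endocardial libraries (open squares). All 15 capillary genes lie right of 0 and all 15 endocardial genes left of 0 in the coronary libraries, while the mitosis genes lie near 0, and 1 member of the MHC class I and interferon list is not drawn.

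Of 15 tested lipid uptake genes, 11 passed as higher and 3 as lower, with a median of 1.75. Cd36 stood at 185, 85.0, 67.3 and 106 CPM in the E13 libraries and 1868 and 2569.9 CPM in the E17 libraries (4.33 ± 0.32, edgeR adjusted p = 5.67e-07), and its rise in the endocardial libraries was 3.77 ± 0.34. The nuclear receptor gene Pparg rose by 2.85 ± 0.31, the hormone-sensitive lipase gene Lipe by 2.66 ± 0.18 and Acsl1, whose product couples fatty acids to coenzyme A, by 1.17 ± 0.12. The transport protein genes Slc27a1 and Slc27a3 fell by 2.34 and 1.74 on the log2 scale, the first from 11.7 ± 2.33 CPM at E13 to 2.32 ± 0.403 CPM at E17. Vldlr, the gene of the very low density lipoprotein receptor, fell by 0.81, and not past the threshold without E17 replicate 2 (edgeR adjusted p = 0.116). Of 15 tested genes of fatty acid oxidation in mitochondria, 7 passed as higher and 4 as lower, beside 24.6% and 25.6% of all genes. The largest rise was 0.43 in Acadm (38.2 ± 1.31 CPM at E13 and 51.6 ± 2.48 CPM at E17), the largest change was the fall of Cpt1c, a carnitine palmitoyltransferase gene (-1.18 ± 0.25), and Cpt1a, the gene for the enzyme that admits fatty acids to mitochondria, fell (-0.60 ± 0.07). The 7 were 3 without E17 replicate 2, 3 without E13 replicate 4, 4 without E13 replicate 1 and 2 with library totals only. Among 17 glycolysis genes, 1 passed as higher and 5 as lower. Hk2, a hexokinase gene, fell by 1.83 on the log2 scale (23.6 ± 4.05 CPM at E13 and 6.66 ± 0.494 CPM at E17). The 5 falls were 9 without E13 replicate 3, 9 with library totals only and 9 with the replicate block. They were 8 with DESeq2, 7 with no filter on low counts and 4 without E13 replicate 2. Leaving out an E17 library moved both the falls and the 1 rise. Of 20 respiratory chain genes encoded in the nucleus, 3 passed as higher and 4 as lower, with library totals only 1 and 11, and without E17 replicate 1 there was 1 fall.

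Caveolae, small pits of the cell membrane, are dense in capillary endothelium, and 8 of 9 caveola genes passed as higher (24.6% of all genes). Cav1, which encodes the main coat protein, stood at 1032, 605, 478 and 668 CPM in the E13 libraries and 3812 and 4750.2 CPM in the E17 libraries, and every E17 library was above 3 times every E13 library. Cav2 rose by 2.05 ± 0.15 and Ehd2 by 1.44 ± 0.14, and Pacsin3 fell (-1.03 ± 0.20). In 6 of the 9, E13 replicate 1 was highest and replicate 3 lowest, against 25.1% of genes at 10 CPM or more at E13. Of 13 genes of junctions and permeability, 6 passed as higher and 4 as lower, beside 24.6% and 25.6% of all genes. The tight junction gene Cldn5 stood at 148, 107, 84.0 and 94.5 CPM in the E13 libraries and 414 and 460.2 CPM in the E17 libraries (2.01 ± 0.20, edgeR adjusted p = 4.54e-06). The adhesion genes Jam2 and Esam rose by 1.25 ± 0.13 and 1.24 ± 0.11. Lsr, the gene of a tricellular junction protein, fell from 24.0 ± 2.53 CPM at E13 to 3.94 ± 1.12 CPM at E17. Plvap, which encodes the diaphragm of fenestrae and caveolae, stood at 219, 215, 298 and 293 CPM in the E13 libraries and 19.96 and 16.3 CPM in the E17 libraries (-3.82 ± 0.17, edgeR adjusted p = 1.28e-08). Its endocardial change was 0.14 ± 0.13, and the difference was -3.97 ± 0.20 (edgeR adjusted p = 1.38e-07).

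Endocardial genes fell, all 15 of them past the test and without overlap between stages (25.6% of all genes were lower, and 30.8% lower without overlap), 14 at least 2-fold, with a median log2 fold change of -3.39 beside 0.14 in the endocardial libraries. The difference from the endocardial change passed for all 15. The summed level was 2309 to 3178 CPM in the E13 and 397 and 345 CPM in the E17 coronary libraries. Npr3, the gene of the natriuretic peptide clearance receptor, stood at 185, 168, 292 and 249 CPM in the E13 libraries and 11.5 and 11.6 CPM in the E17 libraries (-4.27 ± 0.22, edgeR adjusted p = 4.46e-08). Gata4 and Gata5, transcription factor genes, fell by 2.96 and 4.16 on the log2 scale, and Cdh11, a cadherin gene, by 3.13. Nfatc1, whose product is needed for valve formation in the endocardium, stood at 229, 246, 213 and 237 CPM in the E13 libraries and 84.6 and 96.2 CPM in the E17 libraries, a smaller fall than most (-1.36 ± 0.08). The E13 and E17 values of each of these genes did not overlap. Bmp6 fell least (-0.61 ± 0.17), and not past the threshold without E17 replicate 1 (edgeR adjusted p = 0.142). The E17 coronary gate asked for low endomucin and the E13 gate did not, and its part in these falls was not tested. Emcn itself, the endomucin gene, stood at 185, 134, 156 and 177 CPM in the E13 libraries and 211 and 230.3 CPM in the E17 libraries, with E17 above E13 (0.44 ± 0.12, edgeR adjusted p = 0.00789, and 0.082 without E17 replicate 2).

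**Figure D2:**
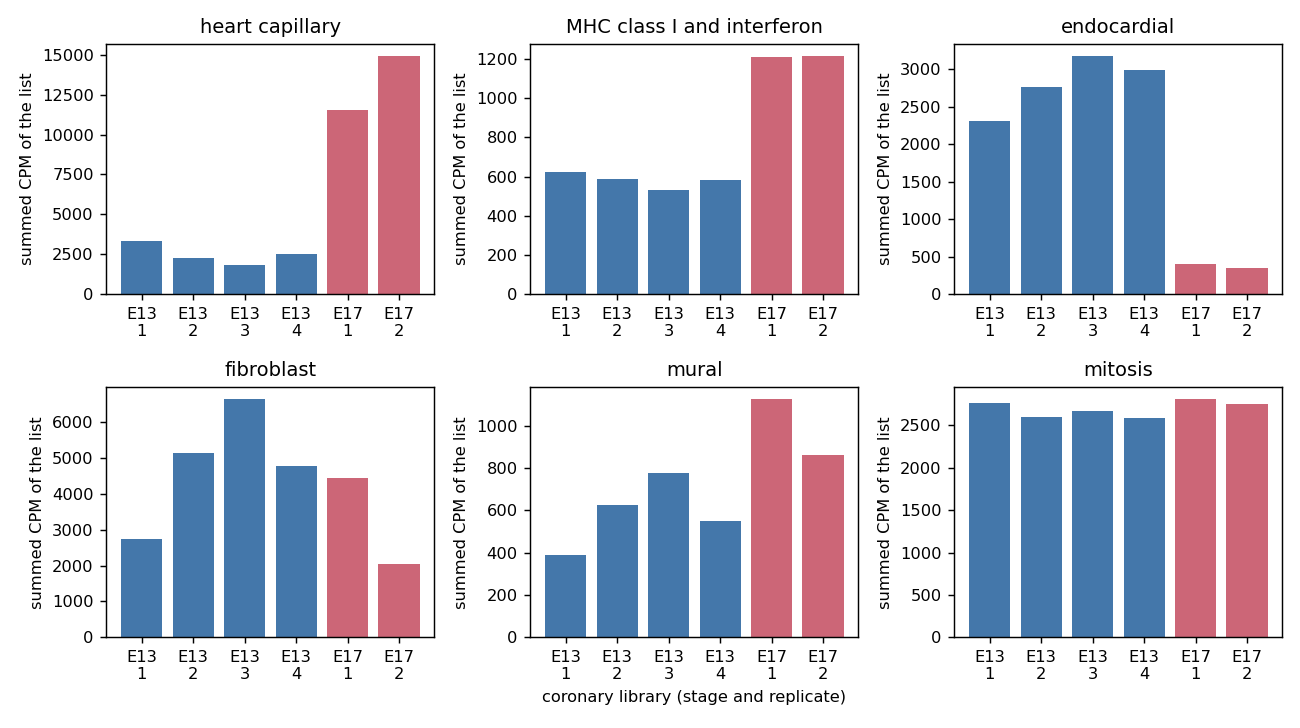
Summed CPM of the tested members of 6 gene lists (vertical axis) in each coronary library (horizontal axis, stage above replicate number, E13 in blue and E17 in red). Capillary and MHC class I and interferon genes are higher in both E17 libraries, endocardial genes lower, and fibroblast genes vary as widely within E13 as between stages.

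Genes shared by all endothelium also rose as a share of the libraries: 14 of 15 passed as higher (24.6% of all genes) and Tek, the angiopoietin receptor gene, as lower (-0.44 ± 0.06). The 14 were 12 with library totals only. Kdr, the main VEGF receptor gene, stood at 1239, 932, 811 and 951 CPM in the E13 libraries and 2327 and 2770.0 CPM in the E17 libraries. Cdh5, the VE-cadherin gene, stood at 2152, 1697, 1473 and 1719 CPM in the E13 libraries and 3448 and 3679 CPM in the E17 libraries. Pecam1, the gene of the sorting marker, stood at 1237, 973, 861 and 1024 CPM in the E13 libraries and 1800.5 and 2141 CPM in the E17 libraries. In each of the 3, E13 replicate 1 was the highest and replicate 3 the lowest of the E13 libraries, the reverse of the fibroblast genes, as in 13 of the 15 genes of the list, and both E17 libraries lay above all 4. Log2 fold changes were 1.37 ± 0.13, 1.02 ± 0.11 and 0.95 ± 0.11. Kdr fell in the endocardial libraries (-0.74 ± 0.14), a difference of 2.11 ± 0.19 (edgeR adjusted p = 7.47e-06). Nes, the nestin gene whose regulatory sequence drives the reporters, stood at 573, 478, 452 and 484 CPM in the E13 libraries and 603 and 663 CPM in the E17 libraries (0.35 ± 0.09, edgeR adjusted p = 0.00653, and 0.0506 with library totals only). Its change was 0.28 ± 0.12 without E17 replicate 2 and 0.15 ± 0.10 with E13 replicate 1 as the only E13 coronary library. Nes did not pass in these alternatives. The median of the list was 0.91, beside 2.75 for the capillary genes, which ran from 0.40 in Fabp5 to 9.38 in Aqp7. Both lists were chosen with earlier results of these data known.

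Arterial genes mostly rose, 10 of 18 higher and 3 lower, beside 24.6% and 25.6% of all genes. The notch ligand gene Jag2 stood at 104, 80.5, 60.0 and 77.4 CPM in the E13 libraries and 241 and 271 CPM in the E17 libraries, the transcription factor gene Sox17 rose by 1.45 ± 0.19, and the receptor gene Acvrl1 by 2.15 ± 0.17. Hey2, a notch-driven repressor gene, stood at 73.0, 72.7, 61.9 and 77.3 CPM in the E13 libraries and 11.4 and 8.09 CPM in the E17 libraries, and its fall (-2.88 ± 0.18) differed from the endocardial change (0.03 ± 0.22) by -2.91 ± 0.29 (edgeR adjusted p = 1.4e-05). The tyrosine kinase gene Bmx fell too (-1.72 ± 0.13). The 3 falls were 5 with library totals only and 5 without E13 replicate 4. Of 12 venous genes 4 passed as higher and 4 as lower, shares near those of all genes (24.6% and 25.6%), with the apelin receptor gene Aplnr rising by 1.72 ± 0.19 and the endocytic adaptor gene Dab2 falling by 1.08 on the log2 scale. The 4 falls were 2 without E17 replicate 2. Of 14 genes of tip cells and sprouting, 11 passed as higher and 1 as lower, led by Trp53i11 (2.12 ± 0.14) and the basement membrane gene Nid2 (1.78 ± 0.15). In 10 of these 14, E13 replicate 1 was highest and replicate 3 lowest, against 25.1% of genes at 10 CPM or more at E13. Prox1, the master gene of lymphatic fate, fell (-2.18 ± 0.16), while Flt4, the gene of the receptor for VEGF-C, stood at 327 ± 49.9 CPM at E13 and 354 ± 0.0279 CPM at E17 and did not pass (edgeR adjusted p = 0.412, and 0.0473 without E13 replicate 1).

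Among 13 tested genes that Wnt signalling is known to switch on, 11 passed as lower, all at least 2-fold, and Ccnd1 and Sox7 as higher, with a median of -2.79. With Sp5, which had no count at E17, set at the bound that 3 counts over the E17 group allow, the median was -2.07. Axin2, a feedback inhibitor gene, stood at 6.98, 12.9, 13.8 and 13.55 CPM in the E13 libraries and 1.303 and 1.08 CPM in the E17 libraries. Nkd1, also a feedback inhibitor gene, stood at 55.8, 69.7, 66.6 and 72.1 CPM in the E13 libraries and 9.12 and 9.94 CPM in the E17 libraries, and Apcdd1 at 110.1, 154, 144 and 154 CPM in the E13 libraries and 22.6 and 14.3 CPM in the E17 libraries. No E17 library overlapped an E13 library in the 3 genes. Lef1, the gene of a nuclear partner of beta-catenin, fell from 14.8 ± 7.17 CPM at E13 to 0.651 ± 0.243 CPM at E17. Axin2, Nkd1 and Apcdd1 were lowest in E13 replicate 1, the library with the lowest fibroblast sum, and 7 of the 13 genes had replicate 1 lowest and replicate 3 highest. Without the coronary library with the highest fibroblast sum at each stage (E13 replicate 3 and E17 replicate 1), 8 of the 11 falls passed, and likewise 8 with E13 replicate 1 as the only E13 coronary library. The endocardial changes of Axin2, Nkd1 and Apcdd1 were 0.37 ± 0.32, 0.85 ± 0.15 and 0.53 ± 0.17, and the differences were -3.68 ± 0.48, -3.64 ± 0.22 and -3.47 ± 0.25 (edgeR adjusted p = 0.000107, 5.12e-07 and 1.55e-06). Ccnd1, the cyclin D1 gene, rose (1.63 ± 0.12), at 264, 238, 265 and 260.1 CPM in the E13 libraries and 704 and 886 CPM in the E17 libraries.

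Of 17 notch pathway genes, 9 passed as higher and 3 as lower, and with library totals only 5 as lower. Over all genes 24.6% were higher and 25.6% lower, shares that apply to each list of this paragraph. The falls in the notch, VEGF and angiopoietin, guidance and flow lists were no larger a share than the latter. The ligand genes went apart: Dll4 rose (0.77 ± 0.17) and Dll1 fell (-1.81 ± 0.10, from 39.6 ± 2.18 CPM at E13 to 11.3 ± 1.17 CPM at E17). Lfng, whose product adds sugars to notch receptors, rose by 2.28 ± 0.21, and the receptor genes Notch4 and Notch2 moved by 0.92 ± 0.13 and -1.75 ± 0.34. Of 15 VEGF and angiopoietin genes, 9 were higher and 3 lower, with the co-receptor genes Nrp2 and Nrp1 at 1.88 ± 0.14 and 1.08 ± 0.08. In 11 of these 15, E13 replicate 1 was highest and replicate 3 lowest, against 25.1% of genes at 10 CPM or more at E13. Guidance genes were 12 higher and 4 lower of 18. Robo4, a receptor gene of endothelium, rose by 1.46 ± 0.15, and the secreted ligand genes Sema3a and Slit2 fell by 2.08 and 2.10 on the log2 scale. BMP and TGF-beta genes were split, 7 higher and 7 lower of 18, and 4 higher without E17 replicate 2. Id1, a target gene, rose by 1.29 ± 0.11, while the receptor gene Bmpr1a fell from 83.1 ± 18.3 CPM at E13 to 13.3 ± 5.84 CPM at E17 and the ligand gene Tgfb2 from 113 ± 33.5 CPM at E13 to 19.4 ± 2.39 CPM at E17. Bmpr1a and Tgfb2 were lowest in E13 replicate 1 and highest in replicate 3. Of 13 genes of the response to flow, 5 passed as higher, among them the thrombomodulin gene Thbd (2.02 ± 0.13), and 2 as lower, among them the endothelin gene Edn1 (-1.62 ± 0.13), whose endocardial change was 1.60 ± 0.11. Of the 2 falls, 1 passed without E17 replicate 2.

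Fetal timing genes fell. Of 10 tested fetal timing genes, whose products act early in development and decline with age, 9 passed as lower and Mycn as higher, with a median of -1.38 beside -1.34 in the endocardial libraries. Hmga2, a chromatin protein gene, stood at 123, 136, 137 and 135 CPM in the E13 libraries and 54.2 and 53.0 CPM in the E17 libraries, and its endocardial fall was the larger (-2.84 ± 0.08 against -1.30 ± 0.07, difference 1.54 ± 0.10, edgeR adjusted p = 9.59e-07). Igf2bp1, an RNA-binding protein gene, stood at 115, 136, 124 and 125 CPM in the E13 libraries and 39.3 and 36.2 CPM in the E17 libraries. Arid3b, a DNA-binding protein gene, fell from 14.2 ± 1.75 CPM at E13 to 1.34 ± 0.0380 CPM at E17. In each of the 3, both E17 libraries lay below all 4 E13 libraries. The summed level was 635 to 683 CPM at E13 and 320 and 328 CPM at E17.

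Imprinted growth genes were 9 lower and 3 higher of 15, beside 25.6% and 24.6% of all genes. H19, an abundant noncoding RNA, stood at 18894, 19253, 21563 and 21995 CPM in the E13 libraries and 8385 and 8890.1 CPM in the E17 libraries (-1.24 ± 0.08, edgeR adjusted p = 1.22e-07), and its difference from the endocardial change was -1.47 ± 0.10 (edgeR adjusted p = 1.08e-06). Igf2, which encodes the fetal growth factor IGF2, fell by 0.60 on the log2 scale, and Igf2r, the gene of the receptor that removes it, by 0.99. Dlk1 rose (1.79 ± 0.24) and Mest rose (0.69 ± 0.13). Of 13 genes of the insulin-like growth factor system, 8 passed as lower and Igfbp7 as higher (1.71 ± 0.15), with Igfbp5 falling by 1.81 on the log2 scale. The 8 were 5 without E17 replicate 2.

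Of 20 mitosis genes, 1 passed as higher and 2 as lower, smaller shares than the 24.6% and 25.6% of all genes. All 3 changed by less than 2-fold. The median of the list was -0.05, and the summed level was 2582 to 2768 CPM at E13 and 2811 and 2747 CPM at E17. Mki67, the proliferation marker gene, stood at 440.3, 416, 454 and 422 CPM in the E13 libraries and 609.9 and 560.1 CPM in the E17 libraries (0.43 ± 0.11, edgeR adjusted p = 0.00555, and 0.0552 without E17 replicate 1). The 2 falls were 0 without E17 replicate 2, and the 1 rise was 6 in a fit of the coronary libraries only. In the endocardial libraries Mki67 fell (-0.72 ± 0.12), and the difference was 1.16 ± 0.16 (edgeR adjusted p = 0.000166). The difference from the endocardial change passed for 10 of the 20 mitosis genes and 9 of 20 DNA replication genes, the coronary change being the more positive in all of these, as it was in 16.2% of all genes. Of the 20 replication genes, 16 were lower at E17 without overlap between stages (30.8% of all genes). By the test 8 passed as lower (25.6% of all genes) and E2f1 as higher (0.65 ± 0.11). The 8 were 3 without either E17 library and 15 with library totals only. Of 12 tested inhibitor genes, 9 passed as higher and 3 as lower, beside 24.6% and 25.6% of all genes. Cdkn1b, which encodes the inhibitor p27, stood at 64.3, 65.6, 64.2 and 67.1 CPM in the E13 libraries and 134 and 134 CPM in the E17 libraries. Cdkn1c, an imprinted inhibitor gene, stood at 513, 485, 828 and 717 CPM in the E13 libraries and 173 and 172 CPM in the E17 libraries, and Rb1, the retinoblastoma gene, rose by 1.06 ± 0.09.

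Genes of antigen presentation and interferon response rose. These genes build the class I complex that shows peptides at the cell surface, or answer interferons. Of 19 tested, 15 passed as higher and none as lower, with a median of 1.47, and 17 did not overlap between stages (29.7% of all genes higher without overlap). The summed level was 532 to 625 CPM at E13 and 1212 and 1216 CPM at E17. The order of E13 libraries seen for the fibroblast genes held for 1 of the 19, and its reverse for 1. Tap2, a peptide transporter gene, stood at 5.63, 3.42, 4.03 and 3.84 CPM in the E13 libraries and 43.5 and 45.6 CPM in the E17 libraries (3.40 ± 0.14, edgeR adjusted p = 1e-08). Tap1, its partner, stood at 2.38, 2.17, 2.17 and 2.13 CPM in the E13 libraries and 16.1 and 15.03 CPM in the E17 libraries, and the immunoproteasome gene Psmb8 at 0.216, 0.173, 0.202 and 0.107 CPM in the E13 libraries and 6.38 and 6.59 CPM in the E17 libraries. Ifitm3, a membrane protein gene, stood at 39.2, 29.8, 35.1 and 35.1 CPM in the E13 libraries and 139 and 141 CPM in the E17 libraries and B2m, the light chain gene of class I molecules, at 212, 173, 170.0 and 189 CPM in the E13 libraries and 303 and 306 CPM in the E17 libraries. The E17 libraries were higher than every E13 library in all 5 genes. Irf7 and Irf9, genes of the response's transcription factors, rose by 3.31 ± 0.21 and 1.23 ± 0.07. The differences from the endocardial change were 2.24 ± 0.21 for Tap2, 1.06 ± 0.11 for Irf9 and 0.96 ± 0.16 for Ifitm3 (edgeR adjusted p = 8.21e-06, 1.47e-05 and 0.000544). From 14 to 17 of the 19 genes passed as higher in every alternative. Class I genes are alike in sequence, and how far they share reads was not measured. The values of H2-D1 (0.58 ± 0.13, edgeR adjusted p = 0.00231) and H2-K1 (0.99 ± 0.41, edgeR adjusted p = 0.0648, and 0.0111 without E13 replicate 2) are therefore uncertain. Without E17 replicate 2 the change of H2-D1 was 0.44 ± 0.16 and did not pass.

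As sequence context, the promoters of 3 genes of the list are shown, from the RefSeq promoter table on GRCm38.p6. The 3 were taken from those that hold the motif below. The sequences are the 250 bases before the start, 5′ to 3′ on the gene's strand, in lower case with each match to GAAANNGAA, a core of the interferon response element, in capitals. Both strands were searched. Isg15 (chr4:156200819-156201068, minus strand) has 3 overlapping matches that begin 78, 72 and 66 bases before the start, Bst2 (chr8:71537473-71537722, minus strand) 2 at 130 and 124, and B2m (chr2:122147437-122147686, plus strand) 1 at 139.
Isg15: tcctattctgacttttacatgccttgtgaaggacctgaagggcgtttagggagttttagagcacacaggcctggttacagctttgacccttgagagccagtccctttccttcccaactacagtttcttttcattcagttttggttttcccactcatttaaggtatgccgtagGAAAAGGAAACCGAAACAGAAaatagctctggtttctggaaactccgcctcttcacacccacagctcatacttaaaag
Bst2: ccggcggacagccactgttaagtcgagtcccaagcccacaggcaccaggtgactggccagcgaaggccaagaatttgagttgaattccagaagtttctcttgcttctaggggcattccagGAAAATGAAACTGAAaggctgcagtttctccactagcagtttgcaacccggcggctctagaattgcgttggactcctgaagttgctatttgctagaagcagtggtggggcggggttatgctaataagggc
B2m: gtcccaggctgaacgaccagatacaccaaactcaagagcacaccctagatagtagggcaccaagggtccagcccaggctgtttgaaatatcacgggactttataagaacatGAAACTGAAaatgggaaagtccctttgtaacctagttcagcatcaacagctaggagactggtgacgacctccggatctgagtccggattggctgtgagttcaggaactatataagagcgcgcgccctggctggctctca
Isg15 stood at 1.73, 0.563, 1.01 and 1.01 CPM in the E13 libraries and 6.51 and 6.35 CPM in the E17 libraries and Bst2 at 30.7, 25.8, 31.5 and 28.4 CPM in the E13 libraries and 79.5 and 65.5 CPM in the E17 libraries, both higher at E17 (2.59 ± 0.33 and 1.32 ± 0.09). Over promoters of 300 bases (250 before to 50 after the start), 8 of the 17 matched genes of the list held the motif, against 8.56% of all 32851 promoters. The strongly rising Tap1, Tap2, Psmb8 and Irf7, and Irf9, were not among the 8. For the mitosis genes, CCAAT was found in 16 of 18 (37.4% of all) and TTTGAA or TTCGAA, the core of the cell cycle homology region, in 14 of 18 (19.2% of all). TTTCGCGC or TTTGGCGC, an E2F site, was found in 7 of 16 replication genes (0.813% of all). The list counts take a gene as a holder if any of its promoter entries matched, while the shares of all are over entries. The 2 are thus not in the same unit. A match is a description of the sequence and was not tested for binding.

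Of 14 immediate early genes, which respond to stress and to handling of cells, 7 passed as higher and none as lower, beside a median of 0.66 in coronary and 1.58 in endocardial libraries. Zfp36, which encodes a protein that destabilizes messenger RNA, stood at 151, 181, 119 and 104 CPM in the E13 libraries and 372 and 375 CPM in the E17 libraries (1.43 ± 0.25, edgeR adjusted p = 0.000532). The 7 were 4 without E13 replicate 4, 4 without either E17 library, 4 with library totals only and 2 with E13 replicate 1 as the only E13 coronary library. Basement membrane genes rose, 11 of 14 higher (24.6% of all genes). In 10 of the 14, E13 replicate 1 was highest and replicate 3 lowest, against 25.1% of genes at 10 CPM or more at E13. The type IV collagen gene Col4a1 rose by 1.31 ± 0.13 and Sparc, a matrix binding protein gene, by 1.42 ± 0.08, while the laminin gene Lama5 fell (-1.26 ± 0.10).

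**Figure D3:**
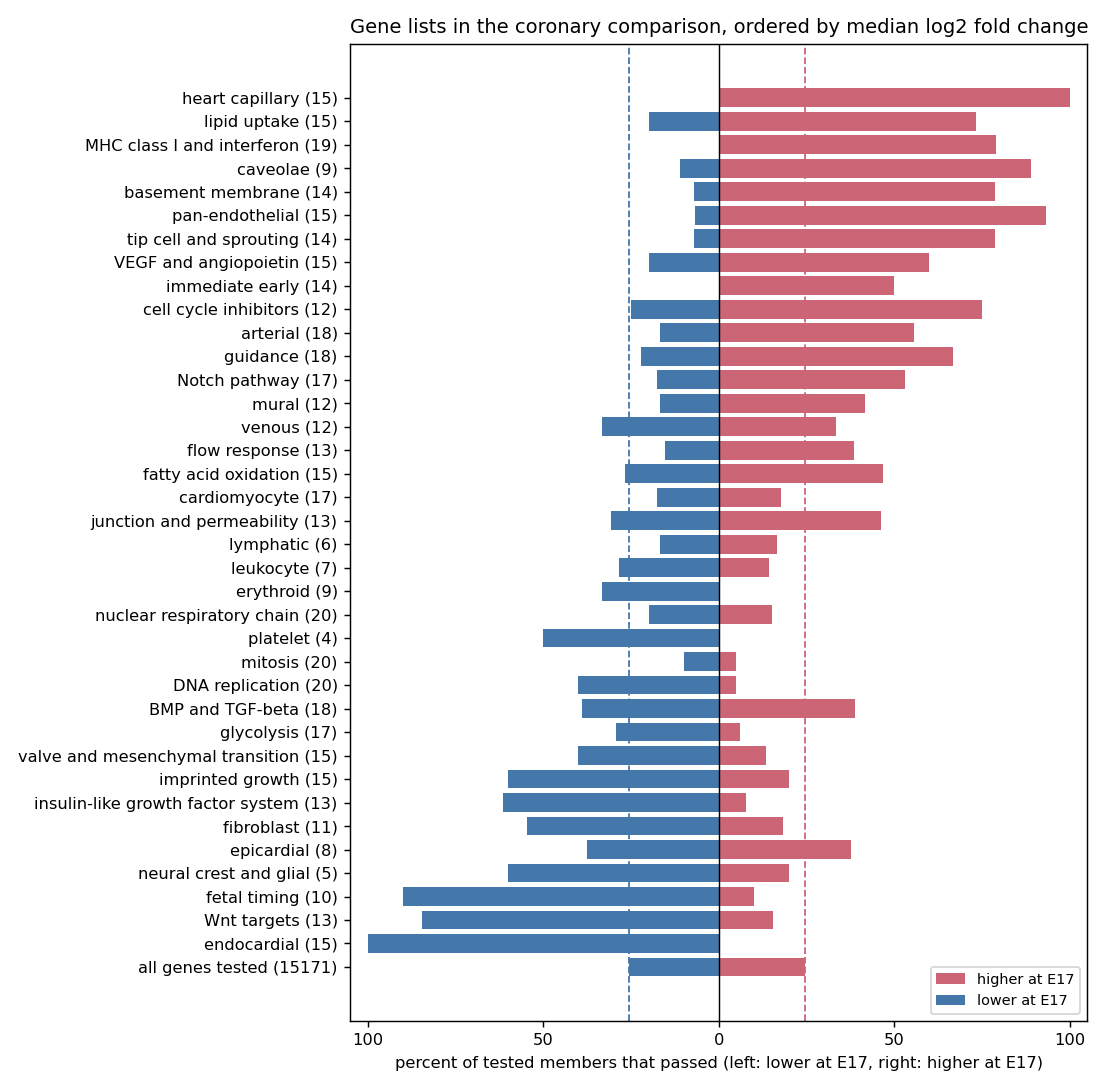
Share of tested members (number in brackets) of each gene list that passed as higher (red, right) or lower (blue, left) in the coronary comparison, ordered by median log2 fold change. Dashed lines mark the shares over all 15171 genes, 24.6% higher and 25.6% lower.

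Of 15 genes of valve and mesenchymal transition, 6 passed as lower and 2 as higher, and the 2 were 4 without E13 replicate 3 and 1 without E17 replicate 2. Vcan, which encodes a matrix proteoglycan, stood at 852, 1497, 1669.9 and 1307 CPM in the E13 libraries and 173 and 104.8 CPM in the E17 libraries, and its endocardial change was 1.85 ± 0.22, a difference of -5.11 ± 0.35 (edgeR adjusted p = 1.06e-06). Has2, the gene of the enzyme that makes hyaluronan, fell from 51.5 ± 17.7 CPM at E13 to 4.56 ± 2.38 CPM at E17, and 11 of the 15 genes had E13 replicate 1 lowest and replicate 3 highest. Of 11 fibroblast genes, 6 passed as lower and 2 as higher, and the 2 were 0 without E17 replicate 1. Fbln1, an extracellular matrix gene, stood at 113, 161, 179.7 and 149 CPM in the E13 libraries and 61.4 and 37.4 CPM in the E17 libraries and Pdgfra, a receptor gene of mesenchyme, at 60.9, 177, 215 and 147 CPM in the E13 libraries and 47.3 and 25.2 CPM in the E17 libraries. With E13 replicate 1, the lowest in these genes, as the only E13 coronary library, 1 fibroblast gene passed as lower and 4 as higher, and the edgeR adjusted p of Pdgfra was 0.182. The collagen gene Col1a1 stood at 710.5 ± 330.1 CPM at E13 and 729.9 ± 396 CPM at E17 and did not pass (edgeR adjusted p = 0.954). Of 12 mural genes, 5 passed as higher and 2 as lower, and the 5 were 8 with E13 replicate 1 as the only E13 coronary library. Rgs5, a pericyte gene, stood at 7.68, 26.0, 40.8 and 20.6 CPM in the E13 libraries and 164 and 111 CPM in the E17 libraries, Pdgfrb, a receptor gene of mural cells, at 45.0, 110.4, 149 and 102 CPM in the E13 libraries and 121 and 71.2 CPM in the E17 libraries, and the smooth muscle gene Cnn1 at 6.06, 22.9, 33.7 and 16.1 CPM in the E13 libraries and 0.960 and 0.479 CPM in the E17 libraries. The mural sum was 390 to 777 CPM at E13 and 1127 and 864 CPM at E17. Over all genes 24.6% passed as higher and 25.6% as lower. The part of mural and mesenchymal cells in the coronary changes was not tested.

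Cardiomyocyte genes summed to 207 to 425 CPM at E13 and 409 and 295 CPM at E17, and 3 of 17 passed in each direction, a smaller share than the 24.6% higher and 25.6% lower of all genes. The 3 rises were 1 without E17 replicate 1, and the 3 falls 1 without E17 replicate 2. Of 8 epicardial genes 3 passed in each direction, and without E17 replicate 2 these were 1 higher and 0 lower. Leukocyte genes summed to 46.1 to 70.4 CPM at E13 and 74.1 and 70.7 CPM at E17, with 1 of 7 tested genes higher and 2 lower, and Ptprc, the CD45 gene, was too low to be tested. The 1 and the 2 were 0 and 1 without E17 replicate 2. Of 9 erythroid genes, the 3 that passed, as lower, were the embryonic globin genes Hbb-y, Hba-x and Hbb-bh1. Hbb-y stood at 29.8, 18.2, 217 and 159 CPM in the E13 libraries and 0.0686 and 0.719 CPM in the E17 libraries, and none of the 3 passed without either E17 library (edgeR adjusted p of Hbb-y 0.0573 and 0.0567). With DESeq2 4 erythroid genes passed as lower, and with the replicate block 5 passed as higher. Of 5 neural crest and glial genes, 3 passed as lower and Fabp7 as higher. Lymphatic genes had 1 of 6 in each direction, and the rise, in Reln, did not pass without E17 replicate 1 (edgeR adjusted p = 0.233). Of 4 platelet genes 2 passed as lower, Gp1ba and Itga2b, and Itga2b did not pass without E17 replicate 2 (edgeR adjusted p = 0.179).

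Of the 12 largest falls by the naming rule, which leaves out predicted genes, 10 had E13 replicate 1 lowest and replicate 3 highest. Among them were the collagen genes Col2a1, Col9a1 and Col9a3. Col2a1 stood at 14.9, 44.9, 58.6 and 36.8 CPM in the E13 libraries and 0.754 and 0.359 CPM in the E17 libraries, Col9a1 at 17.47, 81.0, 111 and 66.0 CPM in the E13 libraries and 2.33 and 0.539 CPM in the E17 libraries and Erbb3, a neuregulin receptor gene, at 6.76, 19.6, 26.98 and 18.6 CPM in the E13 libraries and 0.206 and 0.299 CPM in the E17 libraries. Every E13 library exceeded both E17 libraries in the 3 genes, including replicate 1. Nnat, an imprinted gene active in neural tissue, stood at 36.5, 59.7, 69.0 and 62.4 CPM in the E13 libraries and 1.85 and 1.44 CPM in the E17 libraries (-5.12 ± 0.33), and its endocardial change of -1.26 ± 0.24 was smaller (difference -3.85 ± 0.42, edgeR adjusted p = 2.74e-05). The others were Hbb-y and Hba-x, the carbonic anhydrase gene Car3, the cadherin gene Cdh3, Kif26b, Rimklb and Serinc2, with log2 fold changes from -7.97 in Hbb-y to -5.12 in Nnat.

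Of the 12 largest rises by the same rule, 3 were processed pseudogenes of ribosomal protein genes. Rpl34-ps1 had no count in any E13 library and stood at 12.3 and 83.9 CPM in the E17 coronary libraries, at least 1286-fold above the level that 3 counts over the E13 group allow. Rps3a2 and Rps3a3 stood at or under 0.703 CPM in all E13 coronary libraries and between 62.2 and 175 CPM at E17. All 3 did the same in the endocardial libraries, with Rpl34-ps1 at 10.7 and 74.6 CPM at E17, so that in both populations the batch 6 library was the higher. They were the only genes under 1 CPM in all 8 E13 and at 10 CPM or more in all 4 E17 libraries. The counts of near-identical copies are uncertain. The parent genes Rpl34 and Rps3a1 did not pass, at -0.11 ± 0.09 and -0.12 ± 0.09, and passed as lower with library totals only (edgeR adjusted p = 0.0465 and 0.0226).

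The other 9 largest rises were Aqp7, Timp4, Slc28a2 and 6 genes outside the capillary list. Papln, which encodes a matrix proteoglycan-like protein, stood at 1.84, 1.39, 1.97 and 2.40 CPM in the E13 libraries and 142 and 194 CPM in the E17 libraries (6.48 ± 0.17, edgeR adjusted p = 4.18e-10). Ly6c1, a surface antigen gene, stood at 4.11, 2.64, 1.87 and 3.09 CPM in the E13 libraries and 115 and 153 CPM in the E17 libraries, and Cd300lg, the gene of a surface receptor of capillaries, at 14.6, 7.58, 7.82 and 9.76 CPM in the E13 libraries and 259.6 and 373 CPM in the E17 libraries. In the 3 genes both E17 libraries were far above all E13 libraries, whose order varied. Galnt15, a gene for an enzyme of protein glycosylation, rose by 5.47 ± 0.41, Ccdc85a by 5.23 ± 0.28 and Lims2, an adhesion adaptor gene, by 4.97 ± 0.29. The difference from the endocardial change was 6.10 ± 0.36 in Papln, 4.79 ± 0.41 in Ly6c1, 3.46 ± 0.31 in Cd300lg and 5.01 ± 0.65 in Galnt15 (edgeR adjusted p = 3.79e-07, 5.17e-06, 6.95e-06 and 0.000115). In Ccdc85a, which rose by 3.92 ± 0.35 in the endocardial libraries, the difference was 1.32 ± 0.50 and did not pass (edgeR adjusted p = 0.0634), though it did with the batch as a block (0.0265), with DESeq2 (0.0296), with no filter on low counts (0.0445), and without E13 coronary replicate 1 (0.0218), E13 endocardial replicate 2 (0.0476) or E17 endocardial replicate 2 (0.00766).

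**Figure D4:**
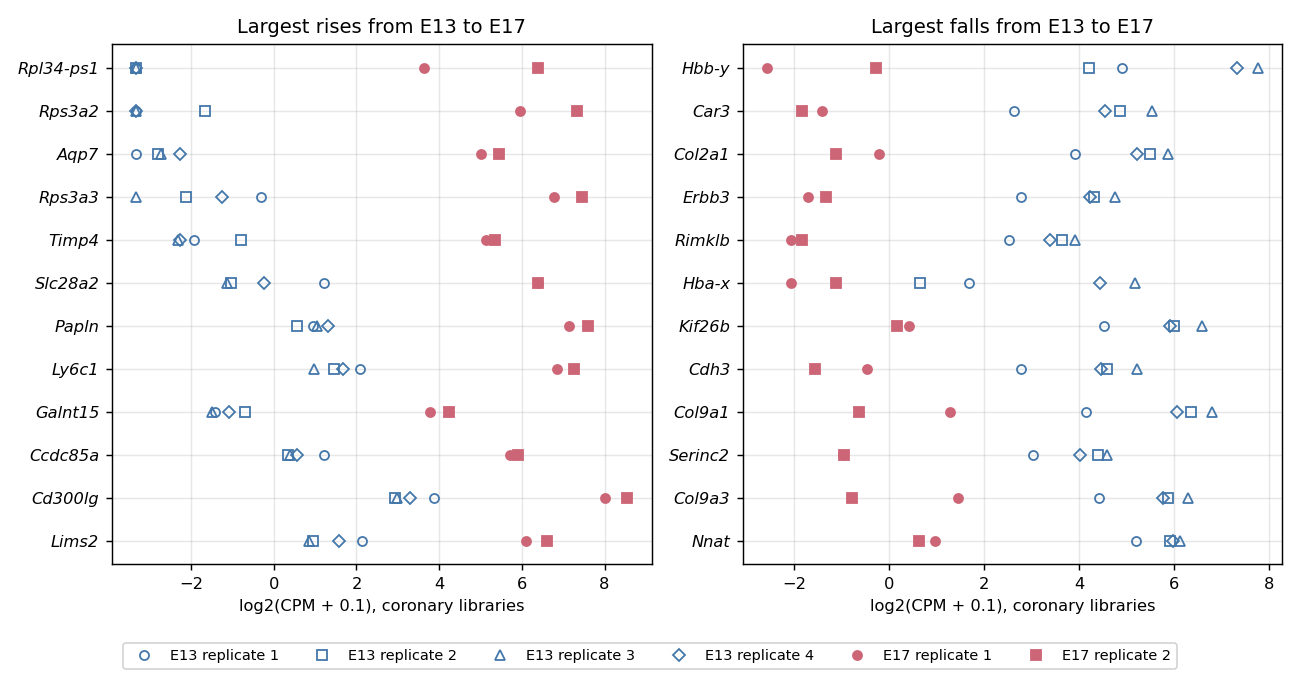
Values of the 12 genes with the largest rises (left) and the 12 with the largest falls (right) in each coronary library, as log2(CPM + 0.1) on the horizontal axis, with E13 libraries as open blue and E17 libraries as filled red symbols and 1 symbol per replicate number. No gene overlaps between stages, and E13 replicate 1 is the lowest E13 library in most of the falls.

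The coronary change differed most from the endocardial change, on the negative side, in Lum, Eln, Ptgs2, Ptx3, Shisa2 and Erbb3. Eln, the elastin gene, stood at 1053, 1568, 1757 and 1405 CPM in the E13 libraries and 354 and 336 CPM in the E17 libraries, a fall of 2.07 on the log2 scale, while it rose by 4.04 ± 0.18 in the endocardial libraries (difference -6.11 ± 0.28, edgeR adjusted p = 9.67e-08). Lum, a fibroblast matrix gene, fell by 2.10 and rose by 4.22 ± 0.41 in the endocardial libraries (difference -6.32 ± 0.62, edgeR adjusted p = 1.27e-05). Ptgs2, the inducible cyclooxygenase gene, was low in the coronary libraries (4.26 ± 1.19 CPM at E13 and 0.720 ± 0.340 CPM at E17) and rose in the endocardial ones (3.52 ± 0.27, difference -6.10 ± 0.46, edgeR adjusted p = 2.08e-06). The differences of Ptx3 and Shisa2 were -6.05 ± 1.32 and -5.98 ± 0.66, and that of Erbb3 was -5.49 ± 1.35, with an edgeR adjusted p of 0.00834 that was 0.0805 without E17 endocardial replicate 1. On the positive side the 6 were Aqp7, Papln, Slc28a2, Car4, Timp4 and Galnt15, with 8.49 ± 1.26 for Aqp7 and 5.97 ± 0.63 for Slc28a2 (edgeR adjusted p = 0.000296 and 2.29e-05). Of the coronary changes of at least 2-fold, the difference passed for 586 of the 1009 rises and 1091 of the 1654 falls.

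**Figure D5:**
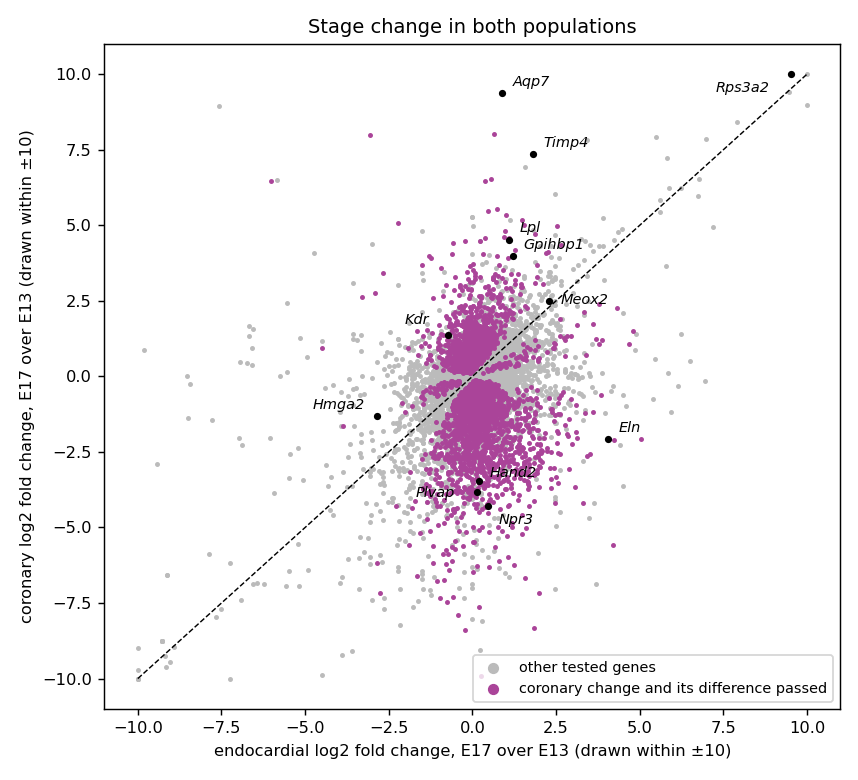
Log2 fold change from E13 to E17 in coronary (vertical axis) against endocardial libraries (horizontal axis) for each tested gene, drawn within ±10, with equal change on the dashed line. Purple genes passed both the coronary test and the test of the difference, among them Timp4 and Lpl high above the line and Hand2 and Plvap far below it.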

How the data were processed

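The authors deposited expected counts per gene, estimated by RSEM from single reads of polyA-selected, unstranded libraries. The submitters' processing notes name CASAVA 1.8.2, cutadapt 1.3, RSEM 1.2.3 and GRCm38, and the settings used with them were not given in the sources used here. Of the deposited values 18.3% were not whole, and all were rounded. Without strand, antisense and overlapping genes cannot be told apart, and near-identical copies share reads. Genes were kept by edgeR's filterByExpr (minimum count 10, minimum total 15). A single edgeR 4.0.16 quasi-likelihood fit (R 4.3.3, TMM scaling) of 4 group means over all 12 libraries left 8 residual degrees of freedom. It gave the coronary and endocardial stage changes and their difference, with Benjamini-Hochberg adjustment and a threshold of 0.05. The standard error is the log2 fold change divided by the square root of F. No pair of libraries was close enough to be counted as 1. The members and the 37 gene lists were chosen with earlier results of these data known, so counts of lists are descriptions. Named genes were the 12 largest rises and falls that passed at 2-fold or more, with at least 10 CPM in the higher group no overlap between stages and a symbol that is not a predicted model, the 6 largest differences in each direction by the same criteria, overlap aside, among genes whose coronary change passed, up to 4 list members with the smallest adjusted p, the uncalled member with the highest level, and the marker and gate genes. Other list members named were chosen after their values were seen, and 1 list member, included in the counts, is not reported here by name. Alternatives were other scalings, no filter, DESeq2 1.42.0, a replicate block, a batch block for the difference, separate fits and leaving out libraries, of which leaving out the library of each stage highest in fibroblast genes and keeping 1 E13 coronary library were added after the data were seen.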

Additional observations from a re-analysis of the deposited data

Results flagged for a closer look

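In 12 of 157 named genes whose E13 coronary values varied, 1 of the 4 E13 coronary libraries lay far from the other 3 by Dixon's criterion, which flags about 1 in 20 groups by chance. The library was replicate 1 at 6.98 CPM in Axin2, 480 CPM in Nrp1, 123 CPM in Hmga2, 2.38 CPM in Tap1, 1.24 CPM in Irf7, 2388 CPM in Sparc, 2.60 CPM in Ifih1 and 0.0541 CPM in Sp5. The library was replicate 2 at 0.476 CPM in Timp4, 25.4 CPM in H2-K1 and 0.217 CPM in Rps3a2. The library was replicate 3 at 42.9 CPM in Dll1. The gene with no such variation was Rpl34-ps1, at 0 in all 4.

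The coronary and endocardial stage changes differed, by the interaction test in edgeR, in 35 of the 36 named genes for which the text gives its size. Of these, 12 were named for the size of that difference. The share follows from the choice of genes and is no test beside the 32.7% of all genes. Among named genes left out, Cd36, Rps3a2 and Rps3a3 did not pass (edgeR adjusted p = 0.408, 0.703 and 0.587). Values are the coronary minus the endocardial log2 fold change. The coronary change was the more positive by 8.49 in Aqp7, 6.10 in Papln, 5.97 in Slc28a2, 5.67 in Car4, 5.55 in Timp4, 5.01 in Galnt15 and 4.98 in Mndal. Smaller or like positive differences were 4.79 in Ly6c1, 4.20 in Ifi203, 3.69 in Ly6e, 3.46 in Cd300lg, 3.44 in Lpl, 2.77 in Gpihbp1 and 2.72 in Parp14. The remaining positive differences were 2.24 in Tap2, 2.11 in Kdr, 1.54 in Hmga2, 1.16 in Mki67, 1.06 in Irf9 and 0.96 in Ifitm3. The coronary minus the endocardial change was -6.32 in Lum, -6.11 in Eln, -6.10 in Ptgs2, -6.05 in Ptx3, -5.98 in Shisa2 and -5.49 in Erbb3. Further negative differences were -5.11 in Vcan, -3.97 in Plvap, -3.85 in Nnat, -3.68 in Axin2, -3.66 in Hand2 and -3.64 in Nkd1. The remaining negative differences were -3.47 in Apcdd1, -2.91 in Hey2 and -1.47 in H19.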

How the results depend on the processing

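Only 2 libraries stand for E17, so a fit without either leaves 1, which is then assumed to vary like the other groups. Leaving out 1 library at a time gave 2826 to 3698 coronary rises and 2731 to 4017 falls, 1578 to 2232 endocardial rises and 1323 to 2124 falls, and 1769 to 2579 positive and 1799 to 2764 negative differences. The endocardial counts moved by over 1.5 times without E17 endocardial replicate 1 (1605 rises, 1323 falls) or replicate 2 (1578 rises). With E13 replicate 1 as the only E13 coronary library, an alternative chosen after seeing the data, 2423 coronary falls passed. With library totals only, 37.1% of the called differences were positive, against 49.7%. With the batch as a block, 4963 differences passed, 2528 positive and 2435 negative.

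Replicate numbers are shared between stages but the batch labels are not, so the numbers share only a name. Same-numbered coronary libraries deviated from their group means with a correlation across 9481 genes of -0.270 and -0.166. The deviations of the 2 E17 libraries mirror each other, so E13 replicate 1 stood at -0.270 with E17 replicate 1 and 0.270 with E17 replicate 2. These correlations therefore cannot check whether the numbers pair libraries. With the replicate block 7019 coronary genes passed, 3456 higher and 3563 lower.

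Of the 152 named genes called in the coronary comparison, 131 were called in every alternative and none changed sign. With E13 replicate 1 as the only E13 coronary library, 16 of them did not pass, among them Ptx3, Sp5, Lum, Pacsin3 and Mycn (edgeR adjusted p = 0.204, 0.344, 0.0541, 0.0728 and 0.0974). Sp5 did not pass without either E17 coronary library (0.0586 and 0.0767). Of the 35 called differences, 34 were called in every alternative. Of the 6 named genes that were not called, 4 changed sign. Flt4 was at -0.0348 with library totals only and -0.13 with E13 replicate 1 as the only E13 coronary library. Col1a1 was at -0.11 with library totals only, -0.38 without the library highest in fibroblast genes at each stage, and -0.66 to 0.51 without single libraries. Pdgfrb was at 0.13 with the replicate block, 1.10 with E13 replicate 1 as the only E13 coronary library (edgeR adjusted p = 0.00688), and -0.52 to 0.25 without single libraries. Rpl34 was at -0.24 to 0.0091 without single libraries, positive without E17 replicate 2. The cause of these changes was not tested.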

Other observations

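Interferon-related genes outside the list were noticed after their values were seen, so their choice is no test. The surface antigen gene Ly6e stood at 22.2, 16.2, 16.7 and 22.5 CPM in the E13 libraries and 455 and 497 CPM in the E17 libraries (4.62 ± 0.12, edgeR adjusted p = 4.18e-10). Ifi203 and Mndal, genes of interferon-inducible nuclear proteins, rose by 4.58 ± 0.30 and 4.41 ± 0.20. Parp14 rose by 3.38 ± 0.16, Samd9l by 3.24 ± 0.21, Slfn5 by 2.76 ± 0.10, the guanylate-binding protein gene Gbp7 by 3.25 ± 0.19 and Ifih1, the gene of a sensor of viral RNA, by 2.65 ± 0.23. The differences from the endocardial change were 3.69 ± 0.18 in Ly6e, 4.20 ± 0.52 in Ifi203, 4.98 ± 0.30 in Mndal and 2.72 ± 0.23 in Parp14 (edgeR adjusted p = 1.18e-07, 7.6e-05, 5.12e-07 and 4.93e-06). Against these rises, the interferon-inducible GTPase gene Iigp1 fell, at 2.49, 16.4, 22.9 and 12.1 CPM in the E13 libraries and 1.71 and 1.198 CPM in the E17 libraries (-3.22 ± 0.75), with E13 replicate 1 lowest and replicate 3 highest, and its edgeR adjusted p was 0.322 with E13 replicate 1 as the only E13 coronary library.

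The predicted gene Gm26825 was also noticed after its values were seen, and it behaved alike in both populations. In both, its lowest E13 library was replicate 2. In the endocardial libraries it stood at 153, 0.721, 243 and 165 CPM in E13 replicates 1 to 4 and had no count at E17. It stood at 191, 1.65, 293 and 215 CPM in E13 coronary replicates 1 to 4 and had no count in either E17 coronary library, and it did not pass without E17 replicate 1 or 2 (edgeR adjusted p = 0.0996 and 0.116).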
